A study of Ovis aries with 60 samples.

Results

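The block described here is a stretch of sheep chromosome 1 around IL1RAP, from 214.0 to 216.5 Mb in the build Oar_rambouillet_v1.0, and its members are all cytosines listed there in sperm of 3 generations. In the F0 rams 343 of 313527 listed CG cytosines lay in the window, in the F1 pools 342 of 294661 and in the F2 rams 120 of 122453. In the CHG and CHH contexts, where H is A, C or T, the window held 2592 of 2205827 and 10526 of 8861888 cytosines in F0, 2466 of 2067477 and 10103 of 8310730 in F1, and 1880 of 1394192 and 7903 of 5906407 in F2. The window was picked because cytosines that differed between the diets of the F0 sires in these same files were known to lie there, so the diet differences in it are a description and carry no test.

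Sperm was taken from Polypay rams. The F0 treatment group was 5 rams (numbers 3, 5, 9, 11 and 23) whose control feed was topped with encapsulated methionine between weaning and puberty, and the F0 control group was 5 rams (4, 6, 10, 12 and 24) given that feed with no supplement. Each treated ram had a twin in the control group, but the labels do not name the pairs. The F1 samples were 10 pools of sperm from sons, 1 pool for each F0 ram, and the F2 samples were 20 single rams, 2 grandsons of each F0 ram, which descend through 1 F1 ram per F0 sire. Dams were untreated Polypay ewes, and all F1 and F2 animals ate the control diet, so that "treatment" in F1 and F2 names the diet of the F0 ancestor. A pool gives 1 value for several brothers, and an F2 ram received chromosomes from 2 generations of untreated ewes as well. A sample is called here by its F0 number, with T or C for the diet where needed, and F2 rams carry their label, which gives the ram's own number and, after the point, its F0 number and diet.

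In whole-genome bisulfite sequencing, unmethylated cytosines are converted and read as thymine while methylated ones are still read as cytosine, and the methylation level is the share of reads that show cytosine. A genomic thymine reads like an unmethylated cytosine, and a ram with 1 C allele and 1 T allele at a methylated site gives an intermediate level. IL1RAP encodes the co-receptor of the interleukin 1 receptor family, which passes inflammatory signals into the cell. Its neighbors in the block include the tight junction claudins CLDN1 and CLDN16, the collagen prolyl hydroxylase P3H2, and OSTN, which encodes the secreted peptide osteocrin. LINEs are long interspersed elements that can copy themselves by way of RNA, and CG methylation helps to silence them in the male germ line. No genome of the files' build was used here, so no sequence is shown.

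Reads over the listed CG cytosines of the window numbered 7098 to 12359 per F0 ram, 6433 to 12316 per F1 pool and 1582 to 4876 per F2 ram. The median coverage per window CG was 18 to 33 reads over the F0 rams, 16 to 32 over the F1 pools and 12 to 39 over the F2 rams, and a cytosine was listed only where each sample of the generation covered it with 10 reads or more. At 10 reads a level can only move in steps of 10 points. Only 4 of the 120 F2 CG had at least 20 reads in every ram, against 85 of 343 in F0.

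The window was highly methylated at CG and nearly unmethylated elsewhere. The mean CG level was 80.4% in F0, 79.6% in F1 and 80.3% in F2, against 74.2%, 73.8% and 70.7% over all listed CG. Single samples ranged from 78.4 to 83.2% in F0, from 77.3 to 81.3% in F1 and from 78.0 to 82.4% in F2. For the generations in turn, the mean CHG level was 0.359%, 0.347% and 0.505% and the mean CHH level 0.394%, 0.377% and 0.495%. Variable cytosines, taken as those with an SD over samples of at least 15 points, were 60 CG in F0 (17.5% of those in the window, 18.8% over all listed CG), 52 in F1 (15.2% and 13.6%) and 32 in F2 (26.7% and 31.8%).

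Most levels at the variable CG of F0 and F2 lay near 0%, near 50% or near 100%. In F0, 14.3% of the levels were at most 15%, 36.5% lay from 35 to 65% and 33.8% were at least 85%. Over all variable CG of F0 these shares were 15.4%, 34.5% and 26.5%. In F2 the window gave 17.3%, 29.8% and 36.4%, and all variable CG gave 15.3%, 30.9% and 22.1%. In the F1 pools more levels lay between these classes, which held 10.4%, 30.8% and 22.7% in the window and 9.54%, 35.6% and 16.6% over all variable CG. No CG of the window was listed on both strands in any generation, and the files hold no genotypes, so a change of methylation and a C to T difference in the DNA cannot be told apart at these cytosines.

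Differentially methylated cytosines (DMCs) were those where the share of methylated reads, summed over each group, differed by 20 points or more between the diets with an adjusted p of at most 0.01. In F0, 18 CG of the window were DMCs, 5.25% of those listed, beside 1.82% over all listed CG. In F1 there were 11, or 3.22% beside 1.00%, and in F2 there were 4, or 3.33% beside 2.19%. In the treatment group 7 of the 18 were hypermethylated and 11 hypomethylated, whereas over all listed CG 0.770% were hypermethylated and 1.05% hypomethylated DMCs. The F1 DMCs were 5 hypermethylated and 6 hypomethylated (0.458% and 0.542% over all CG), and the F2 DMCs 3 and 1 (1.10% and 1.09%). The shares over all listed CG are the background for these counts, and since the window was chosen on the same calls nothing is read from the excess. The size of the difference ran from 22.6 to 45.2 points for F0 DMCs, from 22.2 to 36.6 for F1 DMCs and from 22.1 to 30.0 for F2 DMCs.

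Outside the CG context 3 CHG (0.116% of those in the window, 0.0142% of all) and 3 CHH cytosines (0.0285% and 0.0145%) were DMCs in F0. In F1 there were 0 CHG (0.00605% of all) and 1 CHH (0.00990% and 0.00535%), and in F2 1 CHG (0.0532% and 0.0306%) and 3 CHH (0.0380% and 0.0266%). In a window with mean CHG and CHH levels under 1%, single rams or pools had intermediate or high levels at these cytosines, with up to 100% at the CHG at position 214668409. Without genotypes, a change of methylation and a DNA difference at or beside these cytosines cannot be told apart either.

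The likelihood-ratio test behind these calls sums reads over a group and does not see how far rams of a group lie apart. In limma fits to the single levels of rams and pools, which do, 0 cytosines of the window and 0 of all listed ones were DMCs in any generation and context. At an unadjusted limma p under 0.05 and 20 points, there were 7 window CG in F0 (2.04% of those listed, 0.588% over all CG), 5 in F1 (1.46% and 0.834%) and 1 in F2 (0.833% and 1.05%). Diet groups overlapped in their levels at each of the CG DMCs. Levels without overlap were found at 2 of 343 CG in F0 (0.575% over all CG), 3 of 342 in F1 (0.670%) and 0 of 120 in F2 (0.000817%), and none of these was a DMC.

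Across generations the calls made 34 different cytosines, namely 25 CG, 3 CHG and 6 CHH. Of these, 3 were called in all 3 generations, 4 in 2 generations and 27 in 1. Over all listed cytosines, 110 of 13834 DMCs (0.795%) were called in all 3 generations and 1454 (10.5%) in 2, beside 8.82% and 11.8% in the window. Only 12 were listed in all 3 generations, and 9 of the 12 (75%) had the same sign in each, beside 55.4% of 4883 over all. For CG alone these were 4 of 7 (57.1%), beside 55.6% of 3201. Of the F0 CG DMCs, 15 were also listed in F1 and all 15 had the same sign there, beside 88.4% of 4492 over all CG, while 7 were listed in F2 and 5 of them (71.4%) had the same sign, beside 65.7% of 1555. These calls were known when the window was chosen, so nothing is read from the differences to the background. The generations are related by descent, so these are not independent repeats.

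**Figure D1:**
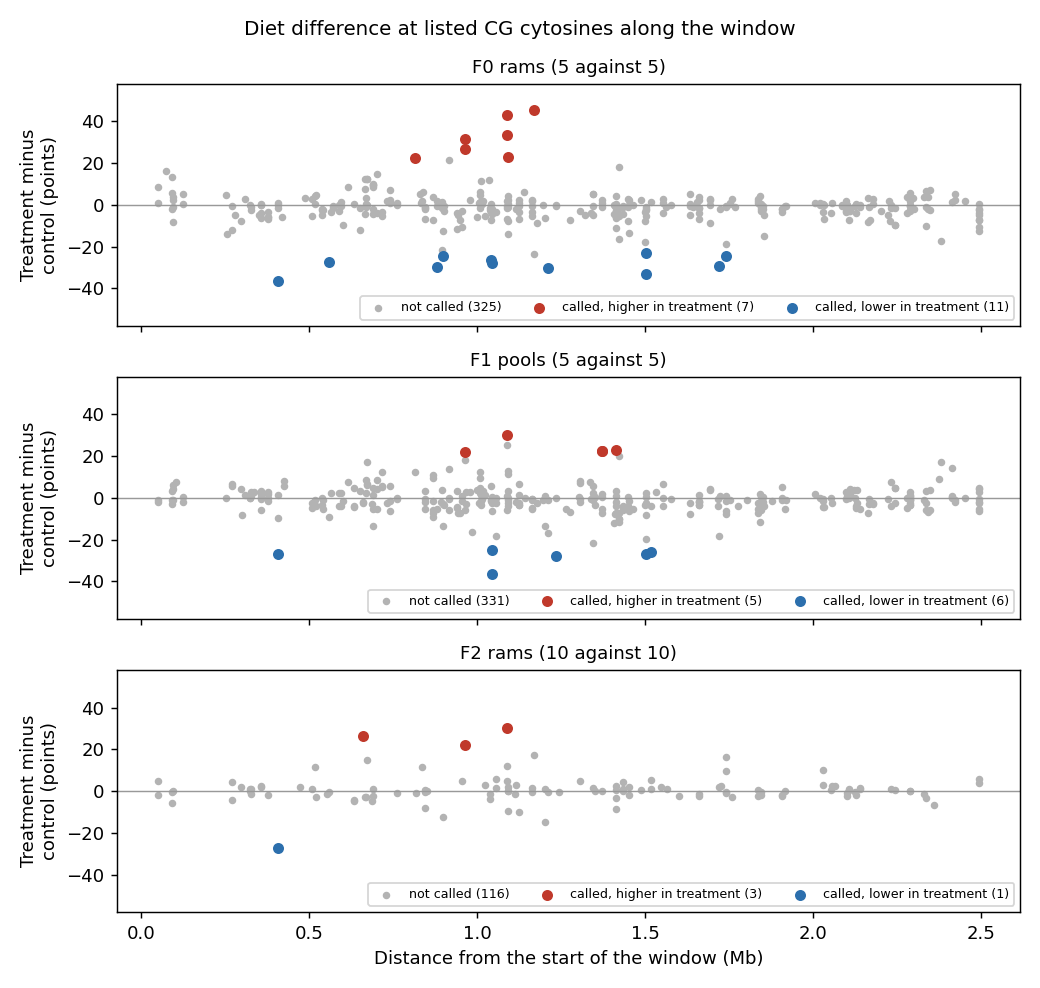
Difference in CG methylation between the treatment and control groups (points) against the distance from the start of the window (Mb) for F0 rams, F1 pools and F2 rams. Each point is a listed CG, gray where not called, red where hypermethylated and blue where hypomethylated in the treatment group. The called CG, 18 in F0, 11 in F1 and 4 in F2, are spread over the first 2 Mb of the window, with 0 beyond.

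DMCs lay in most stretches of the block. By stretches of 0.5 Mb from the window's start, the 18 F0 CG DMCs numbered 1, 6, 7, 4 and 0, among 38, 79, 90, 62 and 74 listed CG. The F1 DMCs numbered 1, 1, 7, 2 and 0, among 36, 80, 100, 57 and 69 listed CG, and the F2 DMCs 1, 2, 1, 0 and 0. The stretch with most F1 DMCs holds the IL1RAP introns named here and CLDN16 introns as well. Among its F1 DMCs, position 215089867 alone was annotated to IL1RAP. Of the 25 CG DMCs, 22 were in the study's own list of DMCs, which annotates each of them in the build of the files. Among these, 5 lay in introns of IL1RAP, 2 in an intron of LOC105602588, an uncharacterized locus, 2 in CLDN16 introns, 2 in P3H2 introns and 1 in an OSTN intron. A further 9 were intergenic, 1 lay in the promoter of LOC114109072, taken as the 10 kb before its start, and 0 lay in an exon. LINE repeats held 12 of the 22. The shares of all listed CG that lie in introns, promoters, intergenic stretches or LINEs were not computed here, so these counts have no background over listed CG. The paper places most of its CG DMCs of each generation in intergenic regions and most in LINEs. Lying in a LINE is thus not particular to the DMCs of the block.

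The 3 cytosines called in every generation were all CG in LINEs. Cytosine A was at position 214407452 on the minus strand, intergenic, in an L1MEg element. Cytosine B was at position 214964564 on the minus strand, in an intron of LOC105602588, in an L1MCa element. Cytosine C was at position 215089867 on the plus strand, in an intron of IL1RAP, in an L1MEc element. A and C are 682 kb apart and B and C 125 kb apart.

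At cytosine A the treated F0 rams 3, 5, 9 and 11 had 0% and ram 23 had 45.5%, and the control rams 4, 6, 10, 12 and 24 had 0, 61.7, 47.8, 40.5 and 97.0%. The F1 pools of the same numbers gave 4.55, 31.2, 50, 0 and 3.92% for treatment and 4.69, 32.9, 100, 32.4 and 82.5% for control. In F2 the lowest, median and highest levels were 0, 32.9 and 97.3% in treatment and 28.9, 48.3 and 97.8% in control rams. The groups overlapped through rams 23 and 4 in F0, through the pools of 5, 9 and 4 in F1, and over most of the range in F2. Over summed reads the difference was -36.5 points for the rams of F0, -26.8 for the pools and -27.2 for the F2 rams. Mean levels were 9.09% ± 20.3 against 49.4% ± 35.1 in F0 (SD, n = 5 each), 17.9% ± 21.8 against 50.5% ± 39.4 in F1 (n = 5 each) and 31.8% ± 32.2 against 59.0% ± 24.4 in F2 (n = 10 each).

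At cytosine B all treated F0 rams were nearly fully methylated, with 97.7, 95.9, 95.1, 97.8 and 87.2% in rams 3, 5, 9, 11 and 23. The control rams 4, 6, 10, 12 and 24 had 100, 40.7, 98.1, 45.7 and 32.6%, so that 2 control rams lay at the level of the treated ones. The treatment pools had 80.0, 87.5, 61.5, 91.1 and 83.6% and the control pools 91.1, 61.5, 48.2, 61.9 and 24.5%. In F2 the lowest, median and highest levels were 0, 50.3 and 100% in treatment and 0, 45.3 and 88.9% in control rams, so that both groups covered nearly the whole range, and 5 rams had 0% (ramF2_382.9T, ramF2_400.24C, ramF2_409.24C, ramF2_413.12C and ramF2_475.10C). The differences were 26.6, 22.2 and 22.1 points in F0, F1 and F2. The mean level of the treatment group was lower in each later generation, at 94.7% ± 4.39 (n = 5), 80.7% ± 11.5 (n = 5) and 60.6% ± 32.9 (n = 10), and that of the control group was 63.4% ± 32.9, 57.4% ± 24.2 and 39.5% ± 37.1.

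At cytosine C, in IL1RAP, the treated F0 rams 3, 5, 9, 11 and 23 had 92.6, 100, 92.3, 97.3 and 57.9%. The control rams 4, 6, 10, 12 and 24 had 91.7, 51.4, 44.1, 42.9 and 0%. Again control ram 4 was methylated like the treated rams, and treated ram 23 lay nearer to the controls. The pools had 92.6, 89.5, 78.6, 50 and 86.8% for treatment and 82.9, 62.9, 0, 53.8 and 31.0% for control. In F2 the lowest, median and highest levels were 2.94, 76.9 and 100% in treatment and 0, 34.1 and 100% in control rams, an overlap over nearly the whole range. The differences were 42.9, 29.9 and 30.0 points, from 88.0% ± 17.1 against 46.0% ± 32.6 in F0 (n = 5 each), 79.5% ± 17.3 against 46.1% ± 31.8 in F1 (n = 5 each) and 69.2% ± 32.6 against 39.95% ± 36.1 in F2 (n = 10 each).

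How far single F0 numbers carried these calls differed. Cytosine C stayed a DMC when any F0 number was left out in F0 and in F1 (10 of 10 each), and in F2 it was lost without number 23, where the difference was 18.4 points. Cytosine A stayed in F0 in 10 of 10, was lost in F1 without number 10 or 24 (lowest size 17.1 points) and in F2 without number 23 (17.2 points). Cytosine B was lost in F0 without number 6 or 24, in F1 without 10, 11 or 24, and in F2 without 3, 5, 10, 12, 23 or 24, with a lowest F2 difference of 12.4 points.

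**Figure D2:**
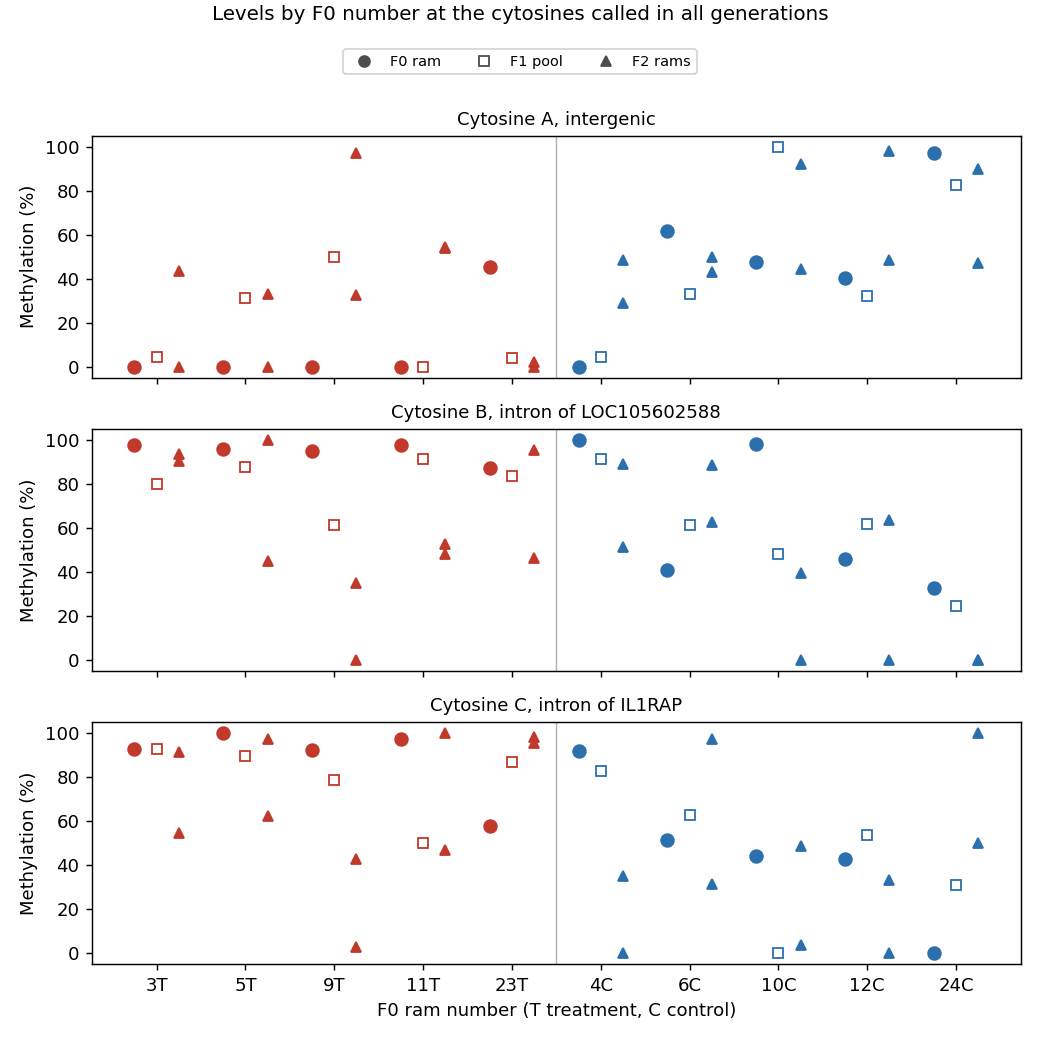
Methylation level (%) by F0 number at cytosines A, B and C, with circles for F0 rams, open squares for F1 pools and triangles for the 2 F2 rams of each number, red for treatment and blue for control. The groups overlap in every generation, with control ram 4 and its pool at the treated level and ramF2_382.9T far from the other treated rams at A.

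The plot by F0 number shows all families, and 4 of the 10 are described here, singled out after their values were seen. Ram 24 had 97.0% at A and 0% at C, and its pool 82.5% and 31.0%. Its grandsons ramF2_400.24C and ramF2_409.24C had 90 and 47.2% at A, but 50 and 100% at C. Ram 23, with 45.5% at A and 57.9% at C, had grandsons at 2.38 and 0% at A and at 95.5 and 98.3% at C. Ram 9, at 0% at A and 92.3% at C, had grandsons at 32.5 and 97.3% at A and at 42.9 and 2.94% at C. Ram 5, at 0% at A and 100% at C, had grandsons at 33.3 and 0% at A and at 62.5 and 97.1% at C. Grandsons thus lay near the sire's level in some cases and at the other end in others.

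Other named CG DMCs had the same kind of levels. At position 215167630 in IL1RAP, which had the largest F0 difference of the window at 45.2 points, treated F0 rams had 92.3, 100, 100, 100 and 70% and control rams 94.7, 50, 64.3, 31.2 and 0%. It was not listed in F1, and in F2 it was not called, with a difference of 17.2 points, or 7.24 to 23.9 without 1 F0 number. At position 215500563, intergenic, treated F0 rams had 0, 0, 51.6, 43.6 and 31.8% and control rams 2.86, 44.9, 92.6, 100 and 96.3%, a difference of -33.2 points in F0 and of -26.9 in F1. The F0 call was kept without any F0 number, and the F1 call was lost without number 10, 12 or 23, with -15.3 points as the smallest difference. At position 215043116, intergenic in a BovB LINE, the differences were -27.9 and -36.6 points. The 4 treated F0 rams other than 9 had 44.4 to 48.0% there and ram 9 had 94.4%, while control ram 4 had 40.6% and the 4 other control rams 96.7 to 100%. It was lost in F0 without number 6 (-22.7 points) and in F1 without number 23 (-22.5 points). In F2 the hypermethylated DMC with the second largest difference was at position 214658761, with 26.5 points, and it was lost without number 3 (19.9 points).

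Some DMCs were called in F1 alone. Position 215235125 differed by -27.8 points in F1 but by -0.833 in F0, and was lost without any of 5 F0 numbers. Position 215412261, in the promoter of LOC114109072, differed by 22.9 points in F1, by 0.381 in F0 and by -8.65 in F2, and its F1 difference fell to 7.77 points at the lowest without 1 F0 number. Positions 215370366 and 215370620, both in CLDN16, were listed only in F1 and differed by 22.3 points each.

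Among the non-CG DMCs, the CHG at position 214668409 was called in F0 (-24.9 points) and F2 (-20.8) and had -17.7 in F1. Its F0 levels were 0, 0, 48.7, 45.8 and 0% in treatment and 1.69, 50.9, 33.3, 100 and 51.8% in control rams. In F2 the call was lost without any of 6 F0 numbers. The CHH at position 215042604 was called in F0 (23.5 points) and F1 (37.0) and differed by 11.6 in F2. Its F0 call was lost without any of 6 F0 numbers, and its F1 call without number 23, where the difference was 19.7 points. There the F0 treatment rams had 37.1, 43.4, 0, 44.1 and 51.6%, control ram 4 had 41.8% and the other control rams 0%. The CHH at position 215589038, listed only in F2, had the largest F2 difference of the window. Its treatment levels ran from 0 to 71.4% with a median of 42.3%, and 9 of its control rams had 0%, with 38.1% in ramF2_350.6C, a difference of 32.1 points that was kept without any F0 number (29.0 to 36.0).

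At the edges of the window the differences were small. The first CG inside, at position 214049824, had 18.2% ± 3.25 in treatment and 17.3% ± 5.11 in control F0 rams, and the last CG before the window, at position 213951531, had 72.9% ± 8.42 and 75.1% ± 13.9. The last CG inside, at position 216493919, had 94.4% ± 3.41 and 99.2% ± 1.79, and the first after it, at position 216517847, had 89.0% ± 7.05 and 95.8% ± 6.34 (n = 5 each).

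The levels at cytosines A, B and C were then compared with each other. Over the 10 F0 rams, after subtracting each diet's mean, the levels at cytosines A and C gave r = -0.96 at a distance of 682 kb, A and B -0.70 and B and C 0.66. In the F1 pools the values were -0.69, -0.82 and 0.53, and over the 20 F2 rams -0.47, -0.69 and 0.41. All 3 signs were the same in each generation. The 3 cytosines were picked by their diet calls and the samples of a generation share relatives, so these values are a description and do not stand for the block.

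Taking cytosines whose F0 levels, here without subtracting diet means, gave an |r| of at least 0.95 with a center cytosine, 9 sets of 3 or more members were found over the block. The same search was not made elsewhere in the genome, so the number of sets has no background. The largest held 6 cytosines, 3 CG, 2 CHG and 1 CHH, over 1145 kb, among them the OSTN intron CG at position 214560155. All 6 were intermediate in rams 5 and 11. At position 214560155 these rams had 42.9 and 48.3% and the 8 others 95.2 to 100%, and at the CHH at position 214896848 they had 65 and 67.9% and the 8 others 0%. The F0 differences at these cytosines rested on the 2 treated rams, and the call at position 214896848 was lost without number 11 (16.2 points).

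Another set, of 3 members over 169 kb, was intermediate in rams 3, 5, 11, 23 and 4 and at 1 end in rams 9, 6, 10, 12 and 24. It held the DMCs at positions 215042604 and 215043116 and the IL1RAP intron CG at position 215211549, where the first 5 rams had 25 to 48.9% and the others 90.9 to 100%. Cytosines A and C and position 215167630 made a set over 760 kb. Cytosine B made one with its neighbors at positions 214914902 and 214964922. The sets were defined by the values, so no test was made on them.

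**Figure D3:**
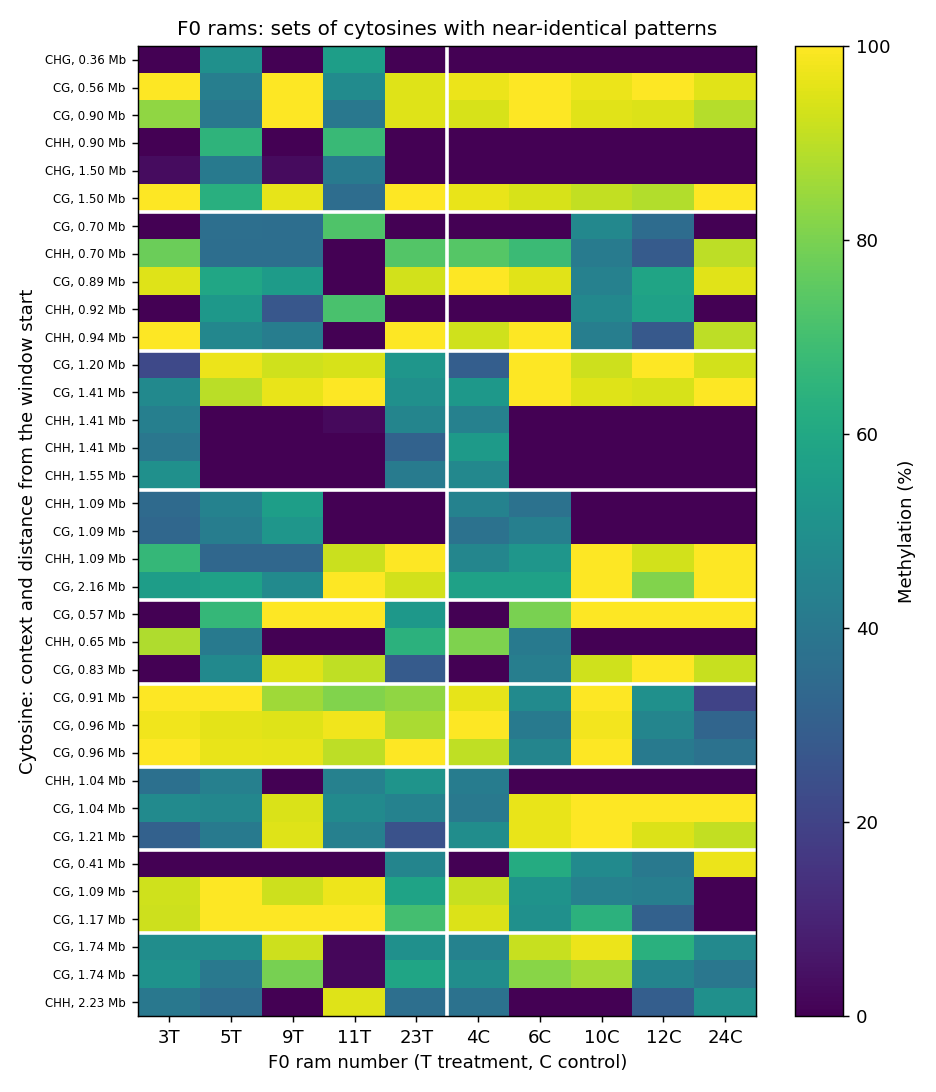
Methylation level (%) of the 10 F0 rams at the cytosines of the 9 sets, one row per cytosine with its context and distance from the window start (Mb), white lines between sets and between the 5 treated (T) and 5 control (C) rams. Within a set the rams share one order of levels near 0, 50 and 100%, direct or inverted, in CG and non-CG cytosines. The top set is intermediate in rams 5 and 11 alone.

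The correlation of levels along the block was set beside that elsewhere. For pairs of variable F0 CG 100 to 500 kb apart, the mean |r| was 0.370 in the window (683 pairs) and 0.377 over the autosomes, and between window CG and CG of chromosome 2 it was 0.316. At 10 to 100 kb, 9.80% of window pairs and 8.94% of autosomal pairs had an |r| of at least 0.8, and of pairs over 1 Mb apart 1.41% and 4.33% had it. In F2 the mean |r| at 100 to 500 kb was 0.316 in the window and 0.313 over the autosomes, and 0.230 to chromosome 2. Pairs 10 to 100 kb apart in F2 had 0.325 in the window (34 pairs) and 0.383 over the autosomes, and 0% and 8.32% of them had an |r| of at least 0.8. Their mean r, with its sign, was -0.067 and 0.183. The window had only 1 F2 pair at 1 to 10 kb.

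In F2, 3 cytosines in the first 1 Mb of the block shared nearly one pattern, direct or inverted. These were positions 214658761 and cytosine B, both CG, and the CHG at position 214668409. Rams ramF2_382.9T, ramF2_475.10C, ramF2_413.12C, ramF2_400.24C and ramF2_409.24C had 0% at both CG and, in that order, 97.2, 97.8, 100, 92.3 and 80.6% at the CHG. Rams ramF2_359.5T, ramF2_329.23T and ramF2_500.3T stood at the other end, with 100% at position 214658761, 93.5 to 100% at cytosine B and 0 to 3.12% at the CHG. The first 5 rams came from both diets, 1 from treatment and 4 from control.

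F2 rams of different families could be nearly identical over the block. Over the 32 variable CG, ramF2_382.9T, ramF2_413.12C and ramF2_475.10C differed on average by 2.33, 2.69 and 2.98 points in their 3 pairs, the lowest of 190 pairs, whose median was 24.8. Over all 38990 variable CG, 27094 of them autosomal, the same pairs differed by 18.6, 18.6 and 19.2 points and ranked 43, 37 and 72 of the 190. At 31 of the 32 CG their levels lay within 15 points of each other, and at 28 all 3 rams were at most 15% or at least 85%. Only 3 of their 96 levels lay from 35 to 65%, against 191 of 640 in all rams. A grandson of a treated ram thus had the same pattern as 2 grandsons of control rams. Rams ramF2_485.6C and ramF2_468.10C differed by 5.15 points and ramF2_359.5T and ramF2_329.23T by 5.54, with 29 of 32 CG within 15 points in each pair, and 22 of the 64 levels of each pair lay from 35 to 65%. The pairs were singled out after their values were seen.

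**Figure D4:**
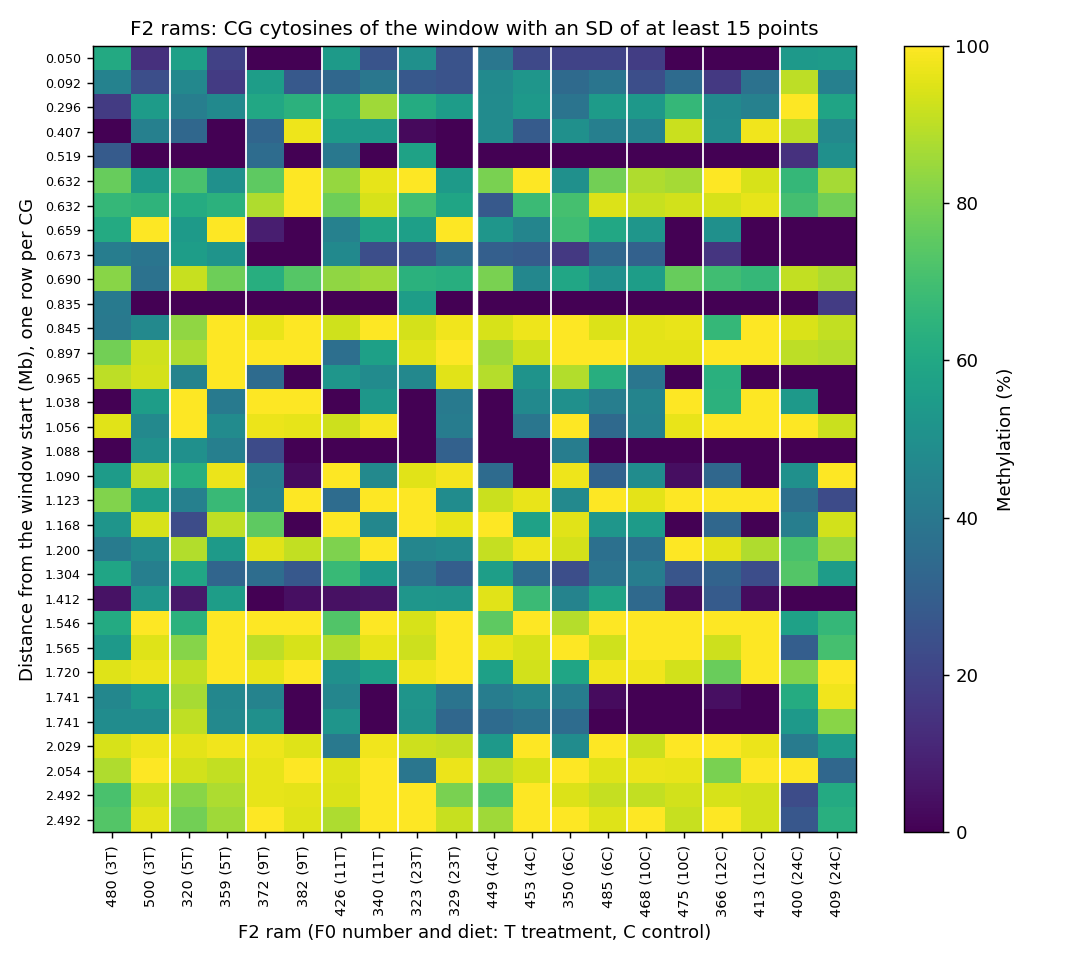
Methylation level (%) of the 20 F2 rams at the 32 variable CG of the window, one row per CG by distance from the window start (Mb), one column per ram with its F0 number and diet. Rams ramF2_382.9T, ramF2_475.10C and ramF2_413.12C have nearly the same column of levels near 0 and 100%, while the 2 rams of a family often differ.

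These pairs were picked as the most alike, so that brothers were less alike than they were follows from the choice. The 2 rams of an F0 number differed by 14.3 points (number 12) to 25.9 points (number 3) on average in the window. Over all variable CG those of numbers 3 and 5 differed by 30.2 and 29.8 points and those of number 10 by 15.6. Over the 27094 autosomal ones these values were 25.3, 26.5 and 18.6 points. Over all variable CG, ramF2_480.3T, ramF2_320.5T, ramF2_400.24C and ramF2_409.24C lay 19.6 to 23.3 points from each other, and ramF2_400.24C up to 38.1 from other rams. These wider values include CG outside the autosomes, so nothing is read from them about the block. In F0, rams 3 and 4, of opposite diets, were the most alike of 45 pairs in the window, with 8.67 points where the median pair had 28.2, and over all variable CG they differed by 20.9. Over all variable CG the 5 lowest of the 45 pairs were 11 and 12, 5 and 6, 9 and 10, 3 and 4, and 23 and 24, each of opposite diets, at 20.1 to 21.7 points. In the window these pairs differed by 28.3, 25.8, 21.3, 8.67 and 25.1 points. The labels do not say whether these pairs are the twins. Within the 5 pairs the treated ram was higher at cytosine C in 5, by 0.926 to 57.9 points, lower at A in 4 and equal in 1, and higher at B in 3 and lower in 2. The smallest difference at C was that of rams 3 and 4. Cytosines A, B and C were called on the reads of these same F0 rams, so the directions within pairs are no separate support for a diet difference. The pairs were singled out after their values were seen.

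Families within a diet were then compared with limma in F2. This contrast does not use the diet, but the families descend from the F0 rams whose levels led to the window, so it is not fully independent of that choice and nothing is read from the share of the window. Over the 8 differences between families of the same diet, 4 of 120 window CG passed at an adjusted p of 0.05, or 3.33% beside 0.875% over all CG. At an unadjusted p under 0.05 the window had 20 of 120 (16.7%) and all CG had 22206 of 122453 (18.1%), with the window above the share of all CG by the first measure and below it by the other. None of the 4 was a diet DMC in F2, and cytosines A, B and C had adjusted p of 0.512, 0.262 and 0.401 in this limma test.

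The called CG were methylated in nearly all rams and intermediate in 1 or a few families. Position 215091952, between the IL1RAP intron DMCs, had limma adjusted p = 0.00326. Both rams of number 11 were at 50 and 52.9% there and the 18 others at 90.9 to 100%. Position 214955992 had limma adjusted p = 0.0202, with 2 rams, none of them from the treatment group, at 48.3 and 57.1% and 18 at 81.2 to 100%. Positions 215452097 and 214896727 had limma adjusted p = 0.0184 and 0.0262. Position 214896727 was also an F0 DMC, of the set that was intermediate in rams 5 and 11. The number of calls was not stable, with 0 on the arcsine square root scale, 0 where every ram had 20 reads or more, and 2 to 5 without 1 F0 number, with 2 where number 4 or number 11 was left out.

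Over the 32 variable CG of the window, rams of the same family differed by 20.4 points on average and rams of other families of the same diet by 24.9. The difference was smaller within families at 26 of 32 CG (81.2%). Over 27094 autosomal CG the values were 21.8 and 26.01 points and 74.9%, close to those of the window. These values cover 10 pairs of brothers and 80 other pairs.

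Resemblance of sire and pool was present in the block as elsewhere. Within diets, the r between the F0 ram's and the F1 pool's level had a median of 0.50 over 40 variable CG of the window and lay above 0 at 100% of them, against a median of 0.61 over 42007 CG of the genome with 93.3% above 0. From pool to the mean of the 2 F2 rams the median was 0.40 over 14 window CG and 0.40 over 9795. At cytosines A, B and C the sire to pool values were 0.41, 0.50 and 0.41 and the pool to F2 values 0.48, 0.74 and -0.04. These were not tested because F0 or F1 levels fell in clusters more than 20 points apart. Named cytosines without such a gap gave 6 correlations over the 10 F0 numbers, with r from -0.29 to 0.55 and rho from -0.25 to 0.38. None passed, with a smallest exact permutation p of 0.07 for r (adjusted over the 6, 0.42) and of 0.206 for rho (adjusted 0.564). Most of these cytosines varied little, as position 216493919 did with 92 to 100% in F0, so they could show little of a resemblance. The widest spread was at position 215412261, with 10.4 to 84% in the treatment pools.

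Expression of the genes of the block was measured by RNA sequencing of sperm samples of the same 20 F2 rams, with 805831 to 13137757 counts per library. These samples also held RNA of leukocyte and epithelial markers, described below. With edgeR's quasi-likelihood test 0 of 13577 genes tested (0%) passed an adjusted p of 0.05 between the diets, and DESeq2 called 0. An unadjusted p under 0.05 was found for 104, fewer than that threshold gives by chance alone. Genes that did not pass are thus not shown to be unchanged. The genes of the block were taken from a list of 12 names, without an annotation of the files' build. The list may thus miss genes of the window or hold some outside it. Of the 12, 7 had 15 or more counts in more than 10 rams and were tested, and 0 passed. OSTN, UTS2B, TMEM207, LOC105602588 and LOC114109072 were under the filter.

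IL1RAP had 62.8 ± 50.02 CPM (TMM-normalized counts scaled by library size) in treatment and 78.4 ± 121 CPM in control rams (SD, n = 10 each), and values from 3.02 to 407 CPM over the 20 rams. The log2 fold change was -0.32 with an SE of 0.69 (edgeR adjusted p = 0.9998). The highest value, 407 CPM, was that of ramF2_350.6C, and without this library the control mean was 41.9 ± 38.0 CPM and the log2 fold change 0.58. With limma on the mean log2 CPM of the 2 rams of each F0 number it was 0.26. With 2 rams per number, group means of log2 CPM are the same with or without this averaging, whereas edgeR fits counts. The direction of IL1RAP thus turned with 1 library and with means taken on the log scale.

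The tight junction gene CLDN1 had 140.0 ± 201.1 against 106.5 ± 149 CPM and a log2 fold change of 0.40 with an SE of 0.84, and CLDN16 had 5.78 ± 4.62 against 5.46 ± 2.95 CPM and 0.08 with an SE of 0.38. P3H2, which hydroxylates prolines of collagen, had 7.14 ± 3.01 against 7.97 ± 4.09 CPM, and TPRG1 had 116 ± 78.2 against 156 ± 179 CPM and -0.43 with an SE of 0.69. With limma on the log2 CPM means of brothers, CLDN16 and TPRG1 changed sign, to -0.047 and 0.060. CCDC50 had 13.1 ± 5.26 against 15.8 ± 6.29 CPM and GMNC, a factor of multiciliated cells, 4.76 ± 2.25 against 5.14 ± 1.92 CPM (SD, n = 10 each). Every one of these genes had an edgeR adjusted p of 0.9998.

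Other members of the interleukin 1 pathway did not pass either. Of 34 genes of the pathway, 26 were tested and 0 passed with edgeR or DESeq2, and 0 had an unadjusted p under 0.05. The median log2 fold change of the 26 was -0.28, against -0.05 over all genes tested. With limma on the log2 CPM means of brothers the sign turned, to a median of 0.04 beside 0.02 over all genes. The ligands IL1A and IL1B had 132 ± 103 against 200 ± 275 CPM and 291 ± 199 against 452 ± 664 CPM. The log2 fold change of IL1B turned from -0.63 to 0.49 with the same limma fit. The receptor IL1R1 had 40.4 ± 12.8 against 35.4 ± 22.0 CPM (SD, n = 10 each). Of 24 claudin genes, 10 were tested and 0 passed. Their median log2 fold change was -0.01, or 0.18 with limma on the log2 CPM means of brothers.

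IL1RAP counts moved with markers of leukocytes among the libraries. The lysis of somatic cells before extraction notwithstanding, the summed CPM of 9 listed leukocyte markers ran from 162 to 26130 in treatment and from 92.2 to 56290 in control rams, none of the 9 being at 0 in all rams. Over the 20 rams log2 IL1RAP rose with this sum (Pearson's r = 0.86, permutation p = 1e-05, the smallest that 100000 resamples give, adjusted 3e-05; rho = 0.80, p = 5e-05, adjusted 0.0001), and r was 0.76 without the 2 rams farthest from the median. It fell with the summed spermatid and sperm markers (r = -0.77, permutation p = 4e-05; rho = -0.75, p = 0.0002), with r = -0.65 without the 2 farthest rams. It rose with those of squamous epithelium (r = 0.74, permutation p = 0.0001; rho = 0.57, p = 0.011), where r was 0.48 without the 2 farthest rams. In bulk RNA, fewer cells of a type and less RNA per cell cannot be told apart. The spermatid and sperm sum was 100 to 2861 CPM in treatment and 70.3 to 2785 CPM in control rams. Median sums in treatment and control rams were 11650 and 9895 CPM for leukocytes and 272 and 417 CPM for spermatids and sperm. For squamous epithelium they were 3553 and 2548 CPM. These sums do not give shares of cells, but the CPM of the genes of the block need not come from sperm alone. No correlation with these sums was computed for other genes, so it is not known whether IL1RAP stands out. IL1RAP, TPRG1 and CLDN1 were all lowest in ramF2_382.9T and ramF2_485.6C, the rams with the fewest leukocyte marker counts. CCDC50, GMNC, CLDN16 and P3H2 were not.

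**Figure D5:**
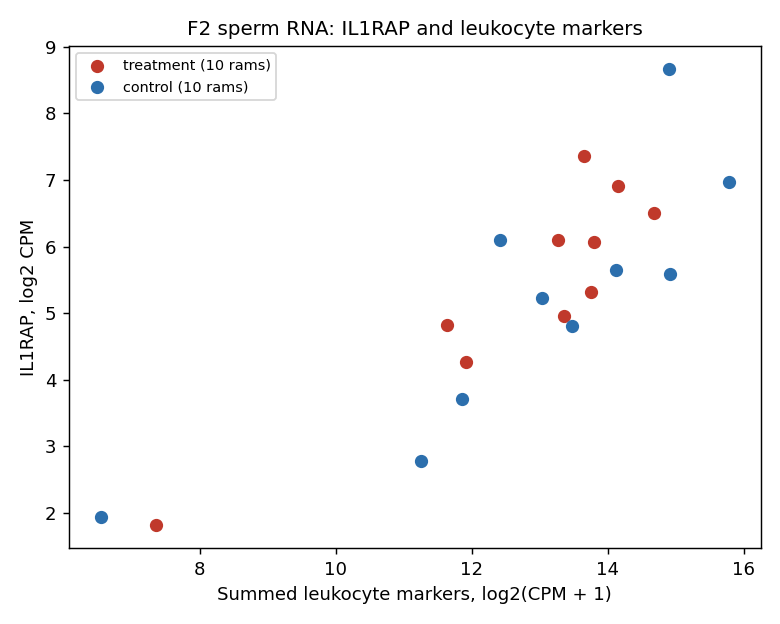
IL1RAP expression (log2 CPM) against the summed leukocyte markers (log2 of CPM + 1) in sperm RNA of the 20 F2 rams, one point per ram, red for treatment and blue for control. Both diets spread along the same rise, from 162 and 92.2 CPM of markers in the lowest ram of each diet to 26130 and 56290 CPM in the highest.

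Methylation and expression were set side by side for IL1RAP. At cytosine C the F2 rams fell into 3 clusters. The 4 rams at 0 to 3.85% had IL1RAP levels of 1.81 to 5.64 on the log2 CPM scale, with a mean of 3.48. The 9 rams at 31.6 to 62.5% had a mean of 5.50 and the 7 rams at 91.3 to 100% a mean of 6.01. Ranges overlapped between the clusters, and ramF2_382.9T, ramF2_413.12C and ramF2_475.10C of the lowest cluster were among those with few leukocyte marker counts, at 162, 2435 and 3693 CPM. The fourth ram of the cluster, ramF2_453.4C, had the highest IL1RAP level of the 4, 5.64, and 17769.5 CPM of leukocyte markers. Low marker sums were also found in the other clusters. They were 92.2 CPM in ramF2_485.6C (31.6% at C), 3191 CPM in ramF2_359.5T (97.1%) and 3850 CPM in ramF2_500.3T (91.3%). The part of these markers in the order of the means was not tested.

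Within clusters of at least 6 rams, 4 correlations of methylation with IL1RAP expression were computed. At cytosine C they were r = 0.52 and rho = 0.37 over the 9 intermediate rams (exact permutation p = 0.151 and 0.336, adjusted 0.604 and 0.721) and r = 0.31 and rho = 0.34 over the 7 methylated rams (exact permutation p = 0.51 and 0.456, adjusted 0.68 and 0.721). The first turned to r = -0.16 without the 2 rams farthest from the median level and thus rested on them, and the other was 0.07. At position 215091952 (18 rams) r was -0.21 and rho -0.15 (permutation p = 0.414 and 0.54, adjusted 0.68 and 0.721), with r = -0.15 without the 2 farthest rams. At position 215167630 (17 rams) r was 0.10 and rho 0.06 (permutation p = 0.718 and 0.81, adjusted 0.718 and 0.81), with r = 0.29 without them. None passed an adjusted p of 0.05. The clusters were cut on the level itself, which left only 91.3 to 100% in the 7 rams and 90.9 to 100% in the 18. These tests therefore cannot decide whether expression differs between clusters. A correlation over all rams together was not computed.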

How the data were processed

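Sperm DNA (10 rams of F0, 10 pools of F1, 20 rams of F2) and sperm RNA of the F2 rams were analyzed. The authors trimmed bisulfite reads with Trim Galore, aligned them to Oar_rambouillet_v1.0 with Bismark and Bowtie2, removed duplicates, extracted calls and deposited, per generation and context, raw counts of reads and of methylated reads for cytosines with at least 10 reads in every sample. The 120 columns of unmethylated reads were not used. RNA reads were trimmed with Trimmomatic and aligned and counted per gene with STAR, and the authors deposited these raw counts. Deduplication limits copies of 1 molecule, but listing only cytosines covered in all samples leaves fewer cytosines in F2, where 20 rams had to be covered.

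The level is methylated reads over reads. DMCs were called on reads summed per group by a logistic likelihood-ratio test (SciPy 1.17.1), with Benjamini-Hochberg adjustment over every listed cytosine of that context, at 20 points and 0.01. Family differences used limma 3.58.1, a moderated F-test with 8 and 10 degrees of freedom before moderation, and expression used edgeR 4.0.16 with TMM, with DESeq2 1.42.0 as an alternative, in R 4.3.3. Correlations within diets were taken after subtracting each diet's mean, with all 14400 arrangements of the pools within diets as the exact test, two-sided, where levels left no gap over 20 points. All permutation tests were two-sided. The tests were checked on simulated data. The window, the gene lists and the markers were chosen with earlier results of these data known.

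Named cytosines were those called in all generations, the CG DMCs with the 2 largest positive and 2 largest negative differences and the largest CHG and CHH DMC in each generation, the 3 CG with the smallest family p, and the edges of the window. DMCs called in 2 generations, the members of the F0 sets, the CLDN16 positions and the fourth family call were named after their values were seen. The CG nearest to the start of IL1RAP was not given, since no annotation of the files' build was used. Gene names come from the RNA file, with IL1RAP, TMEM207, IL37 and CASP1 matched by gene ID through RefSeq's ARS-UI_Ramb_v3.0 table. The genes of the block were listed by name. Their places in the files' build were not checked, except where the study annotates a DMC to them. Intron, promoter and repeat annotations of single DMCs are those of the study. Nothing in the labels says whether samples of a group were collected in separate batches. The levels of a pool and of rams that share a sire are not independent.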

Additional observations from a re-analysis of the deposited data

Results flagged for a closer look

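In groups of 5 or 10 samples, the highest or lowest value was compared with its nearest neighbor relative to the range of the group (Dixon's ratio). Of 106 groups at named cytosines and tested genes of the block, 21 had such a value standing apart. For normally distributed values chance gives about 1 in 20, but neither these levels nor CPM need be so distributed. Levels near 0, 50 and 100% can leave such gaps. CPM values were compared without a log, so a long upper tail can leave them too, and each flagged CPM was the highest of its group. Ranges in brackets are those of the other samples of the same group, and no part of this was tested.

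Treated F0 ram 23 stood apart at 4 cytosines, with 45.5% at position 214407452 where the other treated rams had 0%, 87.2% at 214964564 (others 95.1 to 97.8%), 57.9% at 215089867 (92.3 to 100%) and 70% at 215167630 (92.3 to 100%). Treated ram 9 had 0% at position 215042604 (others 37.1 to 51.6%) and 94.4% at 215043116 (44.4 to 48.0%). Control ram 4 was its mirror, with 41.8% at 215042604 (others 0%) and 40.6% at 215043116 (96.7 to 100%). Treated ram 5 had 0% at position 215412261 (others 33.3 to 45.5%), and control ram 6 had 96% at 216493919, where the other controls had 100%.

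The treatment pool of number 11 had 41.7% at position 214955992 (other treatment pools 82.9 to 96.0%, but control pool 12 had 37.9%). In F2, ramF2_382.9T had 97.2% at the CHG 214668409 (other treatment rams 0 to 50%) and ramF2_340.11T had 72% at 215452097 (85.7 to 100%). Ram ramF2_350.6C had 38.1% at the CHH 215589038 (others 0%) and ramF2_400.24C had 27.3% at 216492044 (63.2 to 100%).

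In RNA, ramF2_350.6C had 407 CPM of IL1RAP (other controls 3.35 to 125). Ram ramF2_323.23T had 686 CPM of CLDN1 (4.53 to 179) and 17.2 CPM of CLDN16 (2.21 to 7.90), and ramF2_468.10C had 474 CPM of CLDN1 (0.223 to 238). For CCDC50, ramF2_372.9T had 24.8 CPM (6.91 to 15.8) and ramF2_468.10C had 31.8 CPM (8.72 to 18.7).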

How the results depend on the processing

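Of 378 comparisons of a value with an alternative setting, 286 kept their direction and call or, for a count, stayed within 1.5 times, 49 lost the call, 38 counts or values moved further and 5 turned direction. At least 20 reads in every sample left 4 F0, 4 F1 and 1 F2 CG DMCs in the window, and 2, 0 and 0 non-CG DMCs where 6, 1 and 4 were called. A difference of 25 points left 6 F1 CG DMCs and 3 F0 and 1 F2 non-CG DMCs. With limma on levels there were 0 in every generation and context. Without 1 F0 number at a time, CG DMCs numbered 12 to 24 in F0, 4 to 17 in F1 and 1 to 7 in F2, and non-CG DMCs 2 to 9, 0 to 2 and 2 to 9. Family calls, 4 in all, were 0 on the arcsine square root scale, 0 with at least 20 reads, 1 at an adjusted p of 0.01 and 2 to 5 without 1 F0 number. Of these, only the construction of the read minimum shows a cause, since it leaves 4 of 120 F2 CG. For the others the cause was not tested. Directions turned for the sire to pool r at position 216493919 (0.04 within diets, -0.10 for levels as they are). With limma on family means of log2 CPM they turned for the log2 fold changes of IL1RAP (0.26), CLDN16 (-0.047) and TPRG1 (0.060). IL1RAP was also 0.58 without ramF2_350.6C, an alternative chosen after seeing the data. No paired analysis was possible from the labels, because they do not name the twin pairs and the F0 numbers differ between the diets. With a replicate block of the 5 most alike F0 pairs, a pairing taken from the levels themselves and chosen after seeing the data, limma called 0 CG in the window and 0 over all listed, with 9 (2.62%) and 2888 (0.921%) at an unadjusted p under 0.05 and 20 points.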
